A study of Mus musculus with 6 samples.

Results

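The lysosome of PGRN KO neutrophils was examined through 47 genes, namely 23 soluble hydrolases with an activator protein, 8 lysosomal membrane proteins and 16 subunits of the proton pump. They were chosen by gene symbol from the 54532 genes measured, without the cathepsins, by a rule that holds no measured value, although the list was drawn up with earlier results of these data known. All 47 were found and reached the minimum mean level for testing, as did 14807 genes in all. Neutrophils were isolated with anti-Ly-6G magnetic beads from the bone marrow of WT mice and of PGRN KO mice, which lack progranulin (gene Grn), both labelled as strain C57BL/6J. All 6 cultures, 3 of each genotype, were challenged with Candida albicans for 6 h and their RNA was sequenced, so the values are levels during infection. The multiplicity of infection differs between the sample labels and the study's methods. The KO line came from the Jackson Laboratory and the WT mice from Chongqing Medical University, so genotype and colony cannot be told apart. The sources used here do not give the number or age of mice behind each culture, and the p-values below measure only the spread between these libraries, which may be technical.

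Lysosomes are acidic organelles that break down proteins, lipids, glycans and nucleic acids taken up by phagocytosis or delivered by autophagy. The V-ATPase, a rotary pump made of a membrane sector (V0) and a cytosolic sector (V1), acidifies them, and many hydrolases work only at that acidic pH. Transcription factors of the TFEB family bind short E-box motifs near the start sites of many lysosomal genes, and progranulin is itself carried to lysosomes and cut there into granulins. In neutrophils, killed fungi are digested in phagosomes that fuse with granules and lysosomes.

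Each library held 17087344 to 18821091 fragments on genes. Log2 values correlated at 0.991 to 0.992 within a genotype and 0.978 to 0.981 between genotypes (Pearson, across genes, which are not independent replicates). Grn had an FPKM (fragments scaled for gene length and library size) of 168, 161 and 166 in WT against 0.242, 0.206 and 0.747 in PGRN KO. The deposited FPKM are scaled to library sizes that lower PGRN KO values by 0.12 on the log2 scale (a shift of -0.12) compared with scaling to the plain totals of fragments. Since many members differ by amounts of this order, calls with both scalings are given below.

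Lysosomal genes were lower in PGRN KO neutrophils far more often than higher with the deposited scaling. Of the 47 genes 17 were called lower and 2 higher at an adjusted p under 0.05 (limma on log2(FPKM + 1), two-sided, adjusted over all genes tested), and 28 were not called. Among all genes tested 9.95% were called lower and 7.94% higher. The log2 fold change was below 0 in 36 members and above 0 in 11, with a median of -0.15 against 0.0026 over all genes tested. Every PGRN KO library was below every WT library in 25 members and above in 5, against 19.6% and 18.1% of all genes. Lysosomal genes are mostly abundant, and abundant genes were called more often, so the 31 members whose mean FPKM reached 10 were also set beside genes of that level. Of these 31 members 13 were lower (41.9%) and 0 higher, against 23.6% and 13.8% of the 3482 genes at that level, whose median log2 fold change was -0.054. With plain totals, which moved the median of all genes to 0.067, 9 members were called lower and 6 higher, against 6.31% and 14.5% of all genes. Of the 31 members whose mean FPKM reached 10, 9 were then lower and 3 higher, against 492 and 890 of the 3482 genes at that level.

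**Figure D1:**
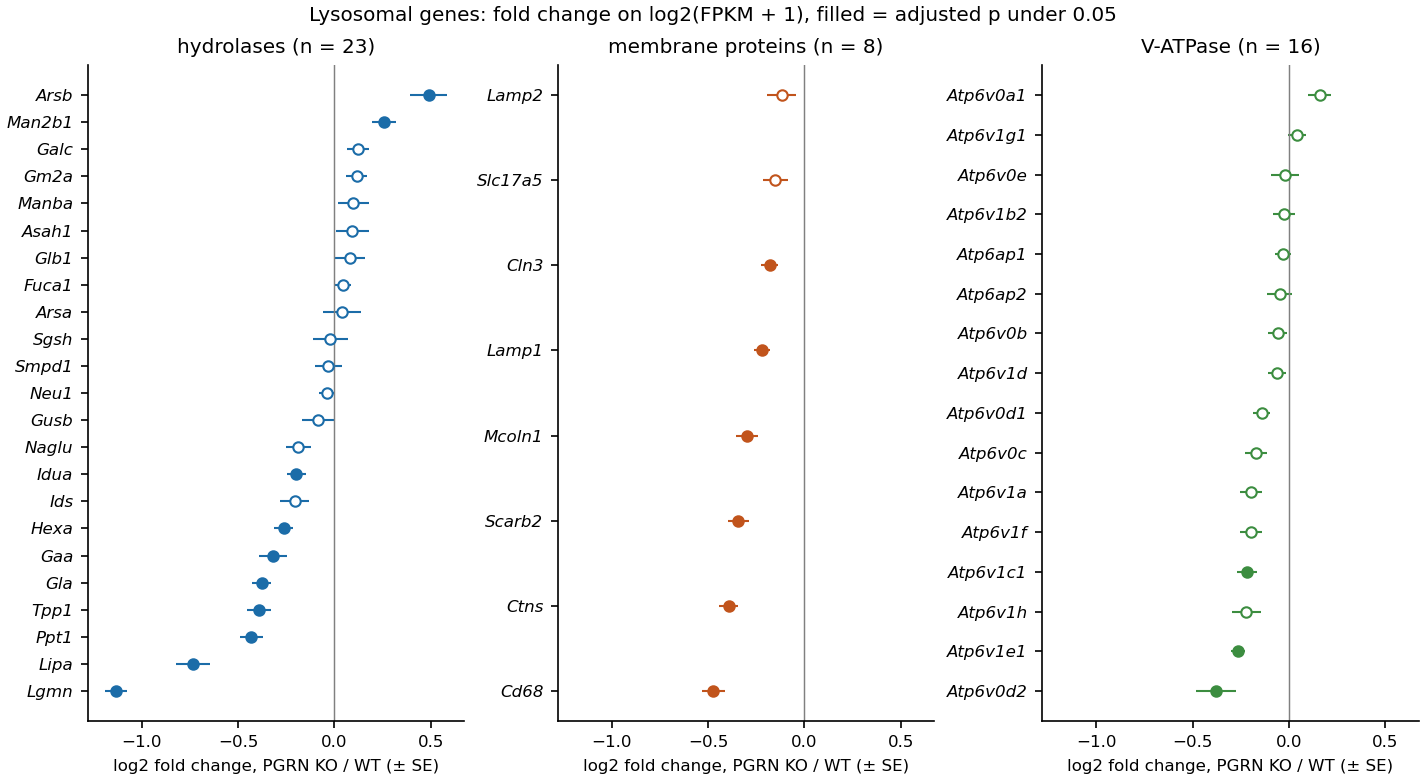
Log2 fold change of PGRN KO over WT (x axis, bars are the standard error, n = 3 libraries per genotype) of each member, by class, with filled points for an adjusted p under 0.05. All 8 membrane proteins lie left of 0 with the deposited scaling, the hydrolases spread from -1.13 (Lgmn) to 0.49 (Arsb), and the V-ATPase subunits lie between -0.38 (Atp6v0d2) and 0.16 (Atp6v0a1).

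The promoters of the members were searched for the E-box that TFEB proteins bind, since the genes of the family are known for it. The letters CACGTG, which read the same on both strands, and the longer TCACGTGA, which contains them, were looked for in windows from 250 bases before to 50 bases after the start site (RefSeq, build GRCm38.p6). A window was given for 41 members, but not for Asah1, Atp6v0d2, Atp6v1b2, Atp6v1c1, Atp6v1g1 and Atp6v1h. CACGTG was found in 14 of the 41 windows (34.1%), against 8.09% of the 27025 promoters of all genes and 11.9% of the 9322 promoters of genes tested. TCACGTGA was found in 6 (14.6%), against 1.12% and 2.30%. The motif was in 6 of 15 windows of members called lower, in 8 of 24 of those not called and in 0 of 2 of those called higher. By class it was in 7 of 22 hydrolase, 3 of 8 membrane protein and 4 of 11 V-ATPase windows. The 6 promoters of called genes with the motif are shown, with the motif in capitals and the strand of the gene read 5′ to 3′. They show where the letters lie, which is no evidence of binding. All lie before the RefSeq start site, but those of Lgmn, Mcoln1 and Cln3 fall inside the span of their gene in the deposited table. For Gla, Mcoln1 and Cln3 an exon of an annotated transcript covers part of the sequence around the motifs.
Lgmn: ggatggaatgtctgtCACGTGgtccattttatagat
Gla: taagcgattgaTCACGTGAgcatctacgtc
Gaa: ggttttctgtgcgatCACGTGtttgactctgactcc
Lamp1: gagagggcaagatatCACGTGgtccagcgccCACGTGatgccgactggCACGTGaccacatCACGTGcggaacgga
Mcoln1: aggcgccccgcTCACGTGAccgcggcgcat
Cln3: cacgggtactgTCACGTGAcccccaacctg
The stretches are chr12:102439121-102439156 (minus strand) for Lgmn, chrX:134601215-134601244 (minus) for Gla, chr11:119267808-119267843 (plus) for Gaa, chr8:13159085-13159160 (plus) for Lamp1, chr8:3500462-3500491 (plus) for Mcoln1 and chr7:126583340-126583369 (minus) for Cln3. Lamp1 held 4 copies of CACGTG within the 76 bases before its start site. Gla, Mcoln1 and Cln3 had 2 copies each in their windows, at least 1 of them within TCACGTGA, and a single copy was found in Lgmn and Gaa.

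The hydrolases included the genes that fell most. Of the 23 hydrolase genes 8 were called lower (34.8%), 2 higher (8.70%) and 13 were not called, against 9.95% and 7.94% of all genes tested. Among genes whose mean FPKM reached 10, 23.6% were called lower and 13.8% higher. The median log2 fold change of the class was -0.040, which became 0.019 with plain totals. The summed level, in contrast to the median, was lower with both scalings. Summed over the class, FPKM was 719 ± 13.5 in WT against 572 ± 16.7 in PGRN KO (SD, n = 3 each), 79.6% of the WT level and 86.5% with plain totals. Lgmn, Lipa and Gla made up 26.6%, 24.0% and 22.6% of that difference in summed FPKM.

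All 3 genes of enzymes that act on proteins were called lower, against 9.95% of all genes tested. Among genes whose mean FPKM reached 10, 23.6% were called lower, and in 36.6% all PGRN KO libraries were below all WT libraries. Lgmn, which encodes the asparaginyl endopeptidase legumain (ENSMUSG00000021190, chromosome 12 from 102394084 to 102439813), was at 76.2, 68.3 and 67.3 FPKM in WT against 31.8, 30.7 and 32.2 in PGRN KO. No library of either genotype came near the other, and PGRN KO stood at 44.7% of the WT mean (log2 fold change -1.13, SE 0.058, adjusted p = 0.000151). Ppt1, which removes palmitate from proteins (ENSMUSG00000028657, chromosome 4 from 122836242 to 122859175), was at 18.5, 18.9 and 19.9 in WT against 12.9, 14.0 and 14.8 in PGRN KO (log2 fold change -0.43, SE 0.061, adjusted p = 0.00540). Tpp1, the tripeptidyl peptidase that trims protein N termini (ENSMUSG00000030894, chromosome 7 from 105744811 to 105752235), was at 55.2, 56.2 and 58.4 in WT against 41.8, 40.6 and 46.6 in PGRN KO (log2 fold change -0.39, SE 0.061, adjusted p = 0.00767). The genotypes did not overlap in any of these 3 genes, and all 3 calls held with plain totals (adjusted p = 0.000231, 0.0140 and 0.0196). Ppt1 shares 3.51% of its exon bases with Cap1 on the other strand, a gene with a mean FPKM of 313, and the sources used here do not say whether fragments were counted by strand.

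Lipa, the lysosomal acid lipase that hydrolyses cholesteryl esters and triglycerides (ENSMUSG00000024781, chromosome 19 from 34492318 to 34527474), was at 90.2, 83.3 and 90.0 FPKM in WT. In PGRN KO it was at 48.4, 49.2 and 60.1, so that the highest of these was still below all WT values. Its PGRN KO mean was 59.9% of WT (log2 fold change -0.74, SE 0.088, adjusted p = 0.00303), and with plain totals its adjusted p was 0.00517.

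Of 9 genes of sphingolipid and ganglioside breakdown 2 were lower (22.2%, against 9.95% of all genes tested) and 7 not called. The median log2 fold change of the 9 was 0.040 (0.13 with plain totals). Gla, the alpha-galactosidase missing in Fabry disease (ENSMUSG00000031266, chromosome X from 134588149 to 134601125), was the most abundant hydrolase gene, at 137, 142 and 149 in WT against 110.2, 105 and 114 in PGRN KO (log2 fold change -0.38, SE 0.050, adjusted p = 0.00424). Hexa, the alpha subunit of beta-hexosaminidase (ENSMUSG00000025232, chromosome 9 from 59539540 to 59565109), was at 129, 119 and 117 in WT against 99.7, 104 and 99.8 in PGRN KO (log2 fold change -0.26, SE 0.049, adjusted p = 0.0141). Both genes were lower in every PGRN KO library than in any WT library. The call of Gla held with plain totals (adjusted p = 0.0115) and that of Hexa did not (adjusted p = 0.0979). Tmem202, an antisense neighbour with a mean FPKM of 1.51, shares 12.8% of the exon bases of Hexa.

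The other sphingolipid genes had levels close to each other in both genotypes. Neu1, a sialidase, was at 89.3 ± 1.62 FPKM in WT against 86.8 ± 2.55 in PGRN KO (SD, n = 3) with a log2 fold change of -0.04, and 0.048 and 0.079 with quantile and plain-total scaling. Asah1 (acid ceramidase), Gm2a (the activator of ganglioside breakdown), Glb1 (beta-galactosidase), Galc (galactosylceramidase), Arsa (arylsulfatase A) and Smpd1 (acid sphingomyelinase) had log2 fold changes of 0.09, 0.12, 0.08, 0.12, 0.04 and -0.03, with adjusted p from 0.202 (Gm2a) to 0.821 (Arsa). In Gm2a and Galc all PGRN KO values exceeded all WT values. Gm2a was called higher with plain totals (log2 fold change 0.23, adjusted p = 0.0241).

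Among 6 genes of glycosaminoglycan breakdown 1 was called higher and 1 lower (16.7% each, against 7.94% and 9.95% of all genes tested). Arsb, which removes sulfate from dermatan and chondroitin sulfate (ENSMUSG00000042082, chromosome 13 from 93771630 to 93943016), was at 1.33, 0.963 and 1.33 FPKM in WT against 2.04, 1.92 and 2.33 in PGRN KO. The genotypes did not overlap, and the PGRN KO mean was 173% of WT while the log2 fold change was only 0.49 (SE 0.097, adjusted p = 0.0169), because log2(FPKM + 1) understates changes at low levels. These values rest on 371 fragments in WT and 706 in PGRN KO over 3 libraries each, and without PGRN KO replicate 6 the adjusted p was 0.0501. Idua, alpha-L-iduronidase (ENSMUSG00000033540, chromosome 5 from 108660331 to 108684557), was at 9.34, 9.41 and 8.72 in WT against 7.73, 7.98 and 7.85 in PGRN KO (log2 fold change -0.20, SE 0.051, adjusted p = 0.0411). Its call was lost with plain totals (adjusted p = 0.272) and with 1 library left out it was called only without WT replicate 3 (adjusted p over the 6 fits 0.0498 to 0.141). Naglu, Ids, Gusb and Sgsh were not called, with log2 fold changes of -0.19, -0.21, -0.09 and -0.02, although Naglu and Ids were lower in every PGRN KO library. Sgsh was the least abundant member, with 42 fragments over the 3 libraries of each genotype.

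The 4 genes of glycogen and glycoprotein breakdown were split. Gaa, the acid alpha-glucosidase that degrades glycogen (ENSMUSG00000025579, chromosome 11 from 119267887 to 119285454), was at 8.41, 7.95 and 7.42 in WT against 6.69, 6.10 and 5.70 in PGRN KO (log2 fold change -0.32, SE 0.073, adjusted p = 0.0281). Man2b1, the lysosomal alpha-mannosidase (ENSMUSG00000005142, chromosome 8 from 85083270 to 85098282), moved the other way, at 8.74, 8.13 and 8.10 in WT against 10.5, 10.5 and 9.47 in PGRN KO (log2 fold change 0.26, SE 0.061, adjusted p = 0.0304). Neither gene's libraries overlapped between genotypes, but neither call was firm. Gaa was not called with plain totals (adjusted p = 0.0883) or without WT replicate 1 or 2 or PGRN KO replicate 5 or 6 (adjusted p over the 6 fits 0.0262 to 0.0909). Man2b1 was called with plain totals (adjusted p = 0.00968), and with 1 library left out it was called only without PGRN KO replicate 6 (adjusted p over the 6 fits 0.0252 to 0.105). Manba and Fuca1, a mannosidase and a fucosidase, were not called (log2 fold changes 0.10 and 0.04), and Fuca1 was called higher with plain totals (adjusted p = 0.0427).

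The membrane proteins were the class in which the largest share was called. Of 8 genes 6 were called lower (75.0%) and 0 higher, and in 7 every PGRN KO library was below every WT library. Among all genes tested 9.95% were called lower and 7.94% higher, and in 19.6% every PGRN KO library was below every WT library. Among genes whose mean FPKM reached 10, 23.6% were called lower, and in 36.6% all PGRN KO libraries were below all WT libraries. The median log2 fold change of the 8 members was -0.26 with the deposited scaling and -0.14 with plain totals. With plain totals 3 of the 8 remained lower, against 6.31% of all genes tested. The difference between this class and the hydrolases was not tested. Summed FPKM was 1044 ± 44.2 in WT against 826 ± 27.8 in PGRN KO (SD, n = 3 each), 79.1% of WT and 85.9% with plain totals. Cd68 and Lamp1 supplied 48.9% and 37.6% of the WT sum.

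Cd68, a heavily glycosylated LAMP-family protein of phagocytes (ENSMUSG00000018774, chromosome 11 from 69664213 to 69666153), was the most abundant member of all, at 508, 477 and 546 FPKM in WT against 362, 358 and 381 in PGRN KO. The lowest WT library stood well above the highest PGRN KO library (log2 fold change -0.47, SE 0.059, adjusted p = 0.00344). Lamp1, a main glycoprotein of the lysosomal membrane (ENSMUSG00000031447, chromosome 8 from 13159161 to 13175338), was at 388, 392 and 399.7 in WT against 325, 339 and 349 in PGRN KO (log2 fold change -0.22, SE 0.041, adjusted p = 0.0144). Scarb2, the receptor that carries beta-glucocerebrosidase to lysosomes (ENSMUSG00000029426, chromosome 5 from 92441314 to 92506833), was at 17.1, 16.7 and 17.7 in WT against 13.04, 12.8 and 14.1 in PGRN KO (log2 fold change -0.34, SE 0.053, adjusted p = 0.00764). In all 3 genes the genotypes were apart. With plain totals Cd68 and Scarb2 were still called (adjusted p = 0.00817 and 0.0230) and Lamp1 was not (adjusted p = 0.139), nor was Lamp1 called without WT replicate 2 or PGRN KO replicate 5 (adjusted p 0.0639 and 0.057). Lamp2, the partner of Lamp1, was at 55.1, 55.7 and 62.2 in WT against 49.7, 51.3 and 58.3 in PGRN KO, which overlap (log2 fold change -0.12, SE 0.076, adjusted p = 0.343).

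Of the 4 channels and transporters of the membrane 3 were called lower, against 9.95% of all genes tested. With plain totals 1 was, against 6.31%. Ctns, the cystine exporter cystinosin (ENSMUSG00000005949, chromosome 11 from 73183596 to 73199042), was at 18.4, 18.6 and 18.2 in WT against 13.7, 13.2 and 14.4 in PGRN KO (log2 fold change -0.39, SE 0.048, adjusted p = 0.00331). Mcoln1, the calcium channel mucolipin (ENSMUSG00000004567, chromosome 8 from 3500457 to 3515232), was at 10.3, 9.43 and 9.91 in WT against 7.71, 8.27 and 7.58 in PGRN KO (log2 fold change -0.30, SE 0.057, adjusted p = 0.0153). Cln3, the membrane protein affected in juvenile Batten disease (ENSMUSG00000030720, chromosome 7 from 126571207 to 126585817), was at 34.5, 33.1 and 35.5 in WT against 30.4, 30.2 and 29.9 in PGRN KO (log2 fold change -0.18, SE 0.043, adjusted p = 0.0299). All 3 genes were lower in each PGRN KO library, but with plain totals the call held for Ctns (adjusted p = 0.00879) and not for Mcoln1 (0.0674) or Cln3 (0.335). Without WT replicate 1 the adjusted p of Mcoln1 was 0.0559, and Cln3 was called in none of the 6 fits with a library left out (adjusted p 0.0557 to 0.0932). Apobr, an antisense neighbour at a mean FPKM of 37.9, shares 7.65% of the exon bases of Cln3. Slc17a5, the sialic acid exporter sialin, was at 3.16 ± 0.207 FPKM in WT against 2.74 ± 0.0226 in PGRN KO (SD, n = 3) and was not called (log2 fold change -0.15, SE 0.063, adjusted p = 0.155), though the genotypes did not overlap.

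**Figure D2:**
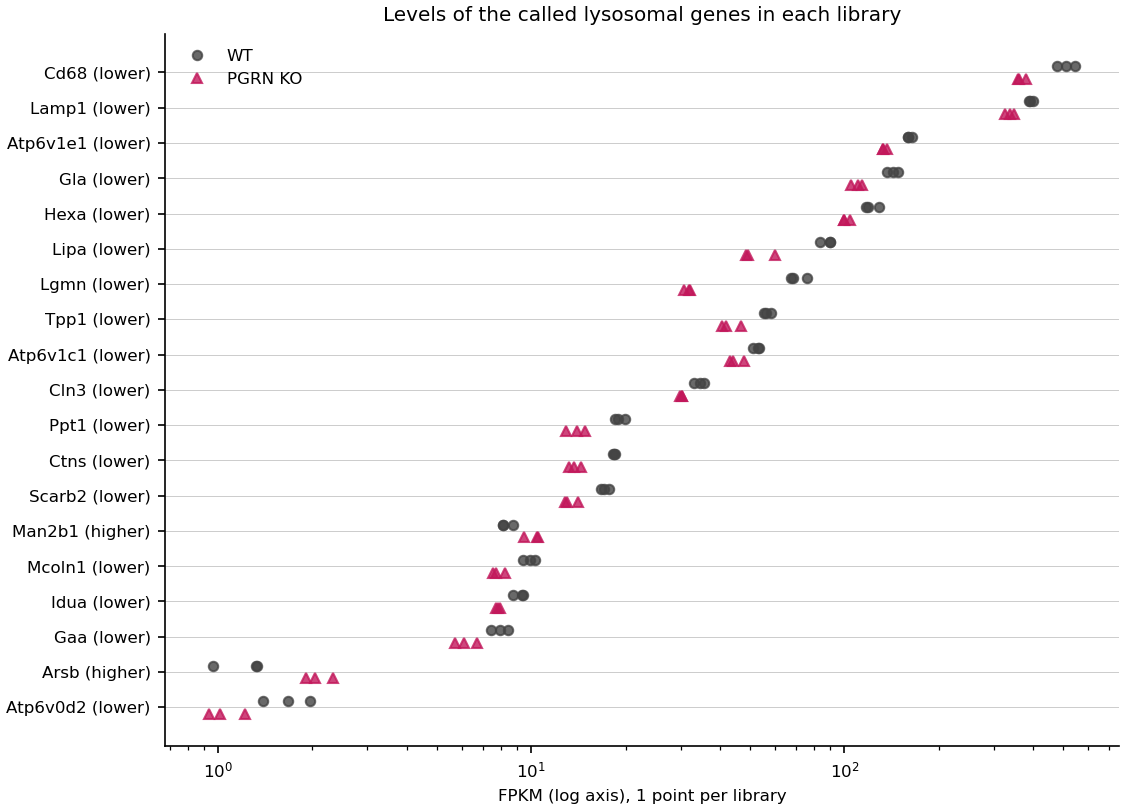
FPKM of the 19 called members in each library on a log axis, with circles for the 3 WT and triangles for the 3 PGRN KO libraries, ordered by mean level. The genotypes do not overlap in any of them, and the gap is widest for Lgmn, with 67.3 to 76.2 for WT against 30.7 to 32.2 for PGRN KO.

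Of the 16 V-ATPase genes 3 were called lower (18.8%) and 0 higher, a share close to the 23.6% called lower among all genes whose mean FPKM reached 10, as it did in 14 of the 16. In 8 of the 16 every PGRN KO library was below every WT library, against 36.6% of all genes at that level. The lower count was 5 when genes with a mean FPKM under 1 were left out, 7 with voom and median-of-ratios scaling, and 1 to 2 with a library left out. Their median log2 fold change was -0.10 with the deposited scaling and 0.017 with plain totals, where 1 was lower and 2 were higher. Summed FPKM was 1672 ± 20.7 in WT against 1554 ± 11.1 in PGRN KO (SD, n = 3 each), which is 93.0% of WT but 101% with plain totals. The direction of the pump as a whole therefore rests on the scaling.

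Atp6v1e1, the E subunit of the peripheral stalk (ENSMUSG00000019210, chromosome 6 from 120794305 to 120822793), was at 159.5, 159.7 and 164 in WT against 133, 132 and 137 in PGRN KO. This was the clearest difference among the subunits (log2 fold change -0.27, SE 0.036, adjusted p = 0.00486), and it was the one that held with plain totals (adjusted p = 0.0307). Atp6v1c1, the C subunit that joins the sectors (ENSMUSG00000022295, chromosome 15 from 38661933 to 38692446), was at 53.2, 51.2 and 52.9 in WT against 43.0, 44.1 and 47.8 in PGRN KO (log2 fold change -0.22, SE 0.051, adjusted p = 0.0293). Atp6v0d2, a d subunit known from osteoclasts and macrophages (ENSMUSG00000028238, chromosome 4 from 19876841 to 19922605), was at 1.39, 1.97 and 1.68 in WT against 1.22, 0.933 and 1.01 in PGRN KO (log2 fold change -0.38, SE 0.10, adjusted p = 0.0467), from 231 and 159 fragments. The genotypes were apart in both genes, but neither was called with plain totals (adjusted p = 0.208 and 0.0737). With 1 library left out, Atp6v1c1 was called only without PGRN KO replicate 6 (adjusted p over the 6 fits 0.0159 to 0.102) and Atp6v0d2 only without WT replicate 1 (adjusted p 0.0412 to 0.145).

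Of the other 5 V0 genes, Atp6v0d1, the d subunit that made up 99.0% to 99.5% of d-subunit FPKM, had the highest mean FPKM of the pump genes over all 6 libraries, at 189.8, 188 and 205 in WT against 178, 174 and 176 in PGRN KO. All PGRN KO libraries were below all WT libraries, yet it was not called (log2 fold change -0.14, SE 0.045, adjusted p = 0.0756). The proteolipid gene Atp6v0c was likewise lower in each PGRN KO library without a call (log2 fold change -0.17, SE 0.058, adjusted p = 0.0897). Atp6v0b and Atp6v0e, which encode small ring and accessory subunits of V0, overlapped between genotypes (log2 fold changes -0.06 and -0.02). Atp6v0a1, an a subunit, was at 8.76, 8.03 and 8.01 in WT against 9.66, 9.58 and 8.80 in PGRN KO, higher in each PGRN KO library (log2 fold change 0.16, SE 0.061, adjusted p = 0.122), and was called with plain totals (adjusted p = 0.0263).

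In the V1 sector, the catalytic A subunit gene Atp6v1a (log2 fold change -0.20, SE 0.056, adjusted p = 0.0572), Atp6v1f (log2 fold change -0.20, SE 0.055, adjusted p = 0.0527) and Atp6v1h (log2 fold change -0.22, SE 0.076, adjusted p = 0.0947) were lower in each PGRN KO library but not called. Atp6v1a and Atp6v1f were just above the threshold, and both were called when genes with a mean FPKM under 1 were left out. Atp6v1b2, Atp6v1d and Atp6v1g1 overlapped between genotypes, with log2 fold changes of -0.03, -0.06 and 0.04. Atp6v1g1, a stalk subunit gene at 175 ± 6.67 FPKM in WT against 179.8 ± 5.16 in PGRN KO (SD, n = 3), was called higher with plain totals (adjusted p = 0.0482). The accessory genes Atp6ap1 and Atp6ap2 had log2 fold changes of -0.03 and -0.05, with adjusted p of 0.652 and 0.673.

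**Figure D3:**
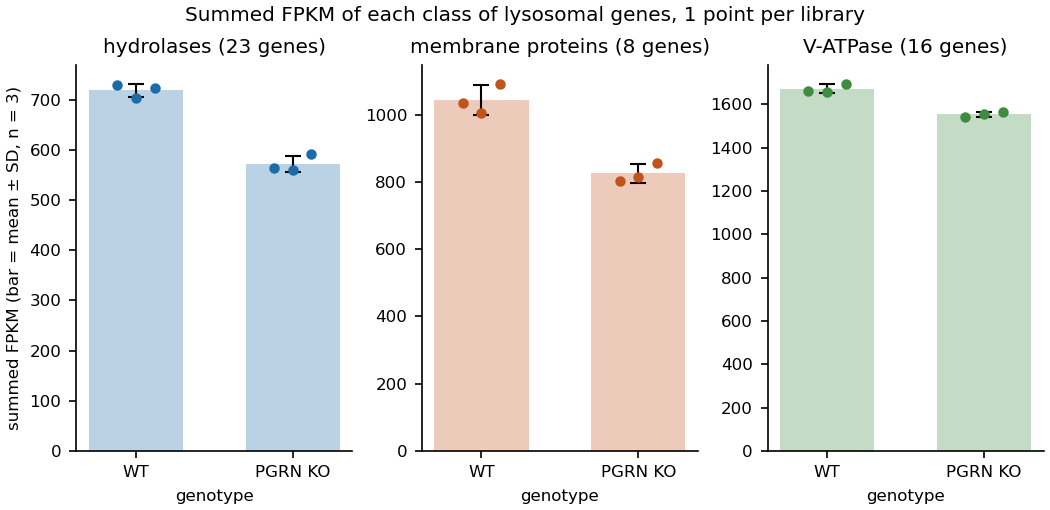
Summed FPKM of each class in each library (points) with the mean and SD of 3 libraries per genotype (bars from 0). With the deposited scaling the PGRN KO sums are 79.6% of WT for hydrolases, 79.1% for membrane proteins and 93.0% for V-ATPase, and with plain totals 86.5%, 85.9% and 101%.

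Levels within the classes were far apart. Of the 31 members whose mean FPKM reached 10, 13 were called lower, and of the other 16 members 4 were. Mean FPKM ran from 0.181 (Sgsh) to 126 (Gla) in hydrolases, from 2.95 (Slc17a5) to 439 (Cd68) in membrane proteins and from 1.37 (Atp6v0d2) to 185 (Atp6v0d1) in the pump. Replicates of the 47 genes differed by a median coefficient of variation of 4.54% (WT) and 5.01% (PGRN KO). At this spread the smallest difference that was called was that of Cln3, with a PGRN KO mean at 87.8% of WT. With 3 libraries a side an exact permutation test (two-sided) of a single gene cannot go below 0.10, so calls rest on the variance that limma shares between genes.

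**Figure D4:**
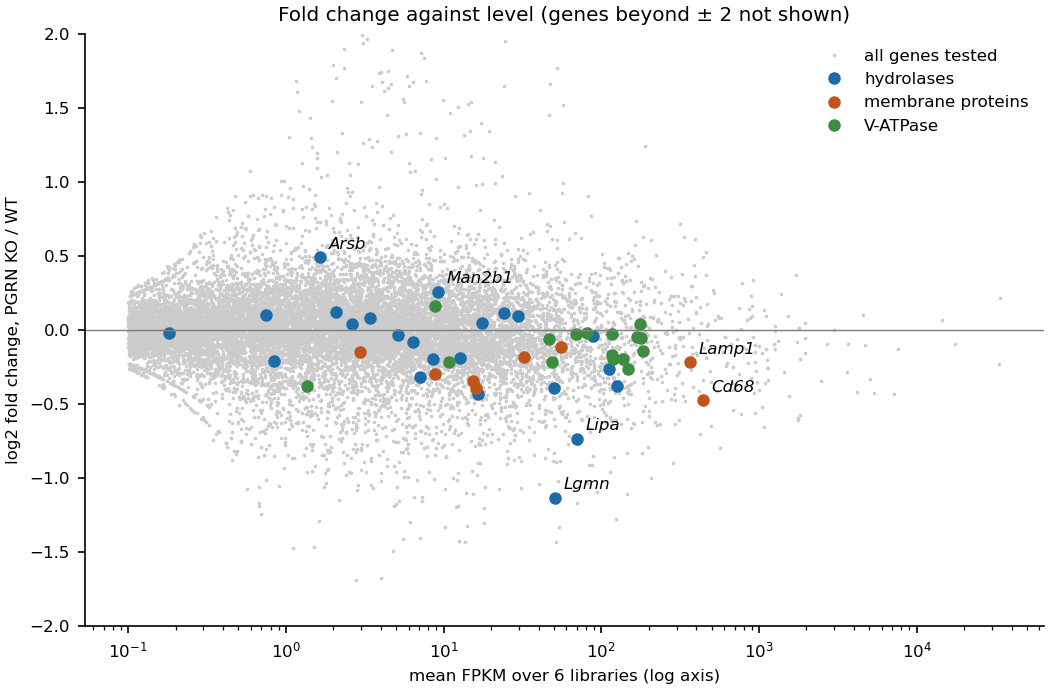
Log2 fold change of PGRN KO over WT against mean FPKM over 6 libraries (log axis). The 14807 genes tested are in grey, except those beyond the ends of the y axis, and the members are coloured by class. Lgmn and Lipa lie lowest among the members, at -1.13 and -0.74, and the most abundant members, Cd68 and Lamp1, lie below 0 with the deposited scaling.

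The scaling changed the call of 8 of the 17 lower genes. Of the 17 genes called lower 9 were also called lower with plain totals, namely Lgmn, Lipa, Ppt1, Tpp1, Gla, Cd68, Scarb2, Ctns and Atp6v1e1. The same 9 held in all 18 alternatives tried, which include each library left out in turn. Of the alternatives, median-of-ratios scaling left the deposited values nearly unchanged. The other 8, Hexa, Gaa, Idua, Lamp1, Mcoln1, Cln3, Atp6v0d2 and Atp6v1c1, were not called with plain totals, and all kept a log2 fold change below 0. Both genes called higher, Arsb and Man2b1, were also called with plain totals, and 4 more were then called higher, namely Gm2a, Fuca1, Atp6v0a1 and Atp6v1g1.

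**Figure D5:**
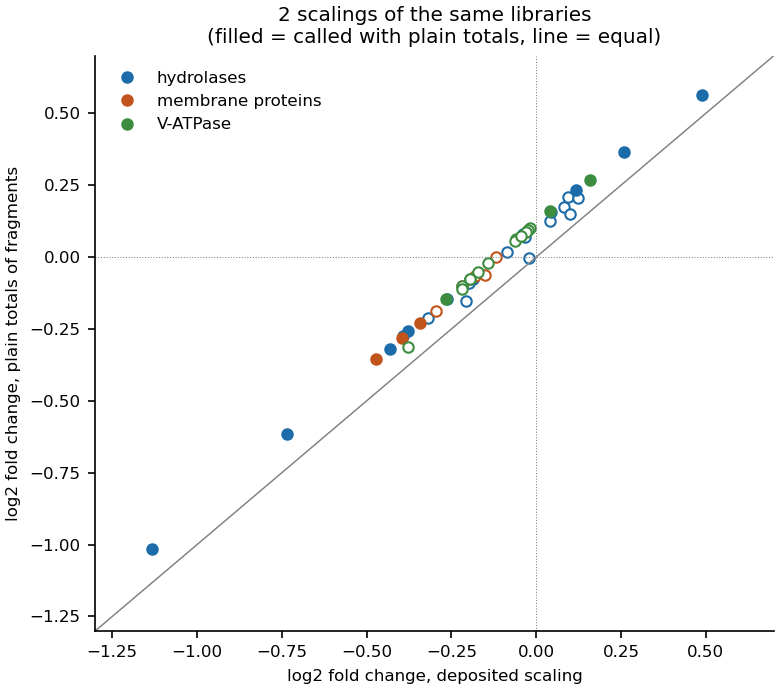
Log2 fold change of each member with the deposited scaling (x axis) and with plain totals of fragments (y axis), with filled points for an adjusted p under 0.05 with plain totals and a line of equality. Every point lies above the line, by up to 0.12, and 9 members that were not called change sign, while Lgmn is at -1.13 and -1.02.

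Other lysosomal genes were examined in 5 lists of 83 genes, of which 77 could be tested. With the deposited scaling 25 were lower (32.5%) and 3 higher (3.90%), beside 9.95% and 7.94% of all genes tested. The lists were also more abundant, with a median mean FPKM of 9.45 against 2.14 over all genes tested. Among genes whose mean FPKM reached 10, 23.6% were lower and 13.8% higher. With plain totals 15 of the 77 were lower and 6 higher, beside 6.31% and 14.5% of all genes. Among 24 further hydrolases and cofactors 9 were lower and 0 higher, led by Acp5, the tartrate-resistant acid phosphatase, at 128 ± 4.01 FPKM in WT against 59.1 ± 3.78 in PGRN KO (SD, n = 3, log2 fold change -1.10, SE 0.056, adjusted p = 0.000151). Among 24 further membrane proteins 8 were lower and 2 higher. The lower genes with the smallest adjusted p were Slc11a1, the divalent metal transporter of phagosomes (log2 fold change -0.48, SE 0.046, adjusted p = 0.00130), and Clcn7, the chloride and proton exchanger of lysosomes (log2 fold change -0.52, SE 0.050, adjusted p = 0.00137). The higher ones were Tmem192 (log2 fold change 0.25, SE 0.048, adjusted p = 0.0159) and Laptm4b (log2 fold change 0.48, SE 0.098, adjusted p = 0.0191). Acp5, Slc11a1, Clcn7, Tmem192 and Laptm4b were all called in the same direction with plain totals.

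The pump depends on paralogs that were not among the 16 subunits. Tcirg1, the a subunit known from osteoclasts and immune cells, was at 128, 128 and 126 in WT against 106, 106 and 104 in PGRN KO (log2 fold change -0.27, SE 0.034, adjusted p = 0.00369), and it was called with plain totals (adjusted p = 0.0267). Of the FPKM of the 3 a-subunit genes above 0, Tcirg1 supplied 91.0% to 91.6% in WT libraries against 88.9% to 89.3% in PGRN KO libraries, while Atp6v0a1 supplied 5.73% to 6.22% and 7.54% to 8.11%. This share does not depend on the scaling, and the genotypes did not overlap in it. Besides Tcirg1, Dmxl2, a subunit of a pump assembly factor, was lower among the 13 tested genes of its list of 19 (log2 fold change -0.28, SE 0.067, adjusted p = 0.0310), though not with plain totals (adjusted p = 0.116), and 0 were higher. The share called lower in that list was 15.4%, against 9.95% of all genes tested. Atp6v0a4, Atp6v0e2, Atp6v1b1 and Atp6v1c2 were listed at 0 in every library.

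Of 12 genes that sort enzymes to lysosomes 4 were lower and 1 higher with the deposited scaling, against 9.95% and 7.94% of all genes tested. With plain totals 1 was lower and 2 were higher, counts close to the 6.31% and 14.5% of all genes. M6pr, a mannose 6-phosphate receptor, was at 253 ± 6.16 FPKM in WT against 201 ± 8.82 in PGRN KO (SD, n = 3, log2 fold change -0.33, SE 0.046, adjusted p = 0.00514), and Ap1g1, a subunit of the clathrin adaptor at the Golgi, was also lower (log2 fold change -0.29, SE 0.052, adjusted p = 0.0130). With plain totals M6pr was called (adjusted p = 0.0171) and Ap1g1 was not (adjusted p = 0.0534). The other lower ones, named after their values were seen, were Igf2r, the other mannose 6-phosphate receptor, and Ap3d1, and neither was called with plain totals (adjusted p = 0.0940 and 0.180). Sort1, sortilin, the receptor that takes progranulin up for delivery to lysosomes, was the gene called higher, at 16.9, 17.3 and 16.4 in WT against 22.1, 22.5 and 21.8 in PGRN KO (log2 fold change 0.38, SE 0.044, adjusted p = 0.00271), and it was called with plain totals (adjusted p = 0.00134).

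Of the TFEB family 2 of 4 genes were called lower, against 9.95% of all genes tested. Tfeb was at 12.6, 12.1 and 11.9 FPKM in WT against 7.69, 7.22 and 7.61 in PGRN KO (log2 fold change -0.64, SE 0.050, adjusted p = 0.000701). Mitf was at 6.08, 6.12 and 7.01 in WT against 4.46, 4.12 and 4.54 in PGRN KO (log2 fold change -0.46, SE 0.071, adjusted p = 0.00772). In both genes the genotypes were apart, and both were called with plain totals (adjusted p = 0.00142 and 0.0143). Tfe3 and Tfec were not called (log2 fold changes -0.12 and 0.07, adjusted p = 0.141 and 0.645). Whether these levels have a part in those of the lysosomal genes was not tested.

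Markers of other cells moved with genotype, and in bulk samples fewer cells of a type and less RNA per cell cannot be told apart. Among all genes tested 9.95% were called lower and 7.94% higher, and with plain totals 6.31% and 14.5%. Neutrophil genes dominated all libraries, with a summed FPKM of 10 markers of 53540 to 57610 in WT libraries and of 55430 to 64040 in PGRN KO libraries, led by S100a9, S100a8 and Camp. Of these 10 markers 2 were called lower (Mmp8 and Csf3r) and 1 higher (Mmp9), all named after their values were seen, and with plain totals 0 were lower and 3 higher. All 5 genes of promyelocytes, which carry primary granules, were higher, with sums of 129 to 144 (WT) and 609 to 670.4 (PGRN KO), led by Elane, Prtn3 and Ctsg. Of 12 monocyte and macrophage genes 8 could be tested, of which 3 were lower (among them Ccr2 and F13a1, named after their values were seen) and 1 higher (Ly6c2). Their sums, mostly Ly6c2, were 528 to 533 (WT) and 553 to 701 (PGRN KO). The other abundant ones, Adgre1 and Csf1r, were at 46.4 ± 1.91 FPKM in WT against 43.4 ± 2.91 in PGRN KO and at 45.6 ± 1.25 FPKM in WT against 40.9 ± 2.51 in PGRN KO (SD, n = 3 each) and were not called. The macrophage genes C1qa, C1qb and C1qc were at or near 0, with 0.110 FPKM as the highest value in any library. Of 6 osteoclast genes 3 could be tested and 1 was lower, Ctsk. B and plasma cell, basophil and erythroid genes were at sums of at most 103, 11.8 and 6.21 FPKM in any library, and 3 of the 4 tested genes in each of these lists were higher and 0 lower. Cd68, Lgmn and Lipa are also abundant in monocytes and macrophages, and the part that a change in cell types or stages has in the lysosomal results was not tested.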

How the data were processed

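The 6 libraries, 3 from WT and 3 from PGRN KO neutrophil cultures, were grouped by their labels, and none was left out. Per the file headers and the study's methods, the authors filtered adapter and low-quality reads, mapped the rest and deposited FPKM per gene and library, with the gene length used. The methods name HISAT and HTSeq, while the submitters' processing notes name HISAT2 2.0.5, featureCounts 1.5.0-p3, DESeq2 1.20.0 and build GRCm38. Positions are those of the deposited table. FPKM times gene length gave whole fragments (within 0.05) for 100% of values, which returned the depth of each library, 17290604 to 17799798 fragments for WT against 17087344 to 18821091 for PGRN KO. Replicates of a genotype differed by more than counting error alone (chi-square per degree of freedom of 2.83 to 11.67 between pairs of libraries).

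FPKM values were transformed to log2(FPKM + 1), genes with a mean under 0.1 were left out (31614 of 54532 were at 0 throughout), and genotypes were compared with limma 3.58.1 (lmFit, eBayes with trend) in R 4.3.3. Every adjusted p comes from a two-sided limma test, by the Benjamini-Hochberg method across the genes tested in its own fit. These were 14807 with the deposited scaling and with plain totals, and 14813 to 14867 with 1 library left out. The fit was tested on simulated data that held no scaling difference between genotypes, so that test cannot speak to the choice of scaling. Python 3.11.15 with pandas 2.3.3 was used for counts and for the promoter search.

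The members and all lists (other lysosomal genes, the TFEB family and markers of neutrophils, monocytes and macrophages, promyelocytes, B and plasma cells, osteoclasts, basophils and erythroid cells) were chosen with earlier results of these data known. All members are named, with library values for those called and the most abundant of each class. From each other list the 2 genes with the smallest adjusted p in each direction are named, with Tcirg1 and the TFEB family, and at most 3 abundant markers per cell type. Some genes that this rule names are not reported here. Alternatives were 2 pseudocounts, 2 filters on low values, 3 scalings (median-of-ratios, quantile, plain totals), voom on the recovered fragments with each of 2 scalings, eBayes without trend or robust, protein-coding genes alone, and each library left out. The deposited FPKM already had equal median-of-ratios factors (1.006 in all 6 libraries), so that scaling is hardly an alternative.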

Additional observations from a re-analysis of the deposited data

How the results depend on the processing

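The scaling of the libraries changed the calls of more members than any other choice tried. With plain totals 9 members were lower (5 hydrolases, 3 membrane proteins, 1 V-ATPase) and 6 higher (4, 0 and 2), and with voom on fragments and plain totals 12 were lower and 7 higher (5, 0 and 2). Other lysosomal genes were then 15 lower and 6 higher with plain totals, and 22 and 12 with voom. Of all calls 44.4% were higher with the deposited scaling, 69.7% with plain totals and 70.5% with voom and plain totals. Over all genes tested 1175 were called higher and 1473 lower with the deposited scaling, 2149 and 934 with plain totals, 2986 and 1252 with voom and plain totals, and 581 to 947 and 804 to 1282 with 1 library left out. The class medians (hydrolases median log2 fold change, membrane proteins median log2 fold change and V-ATPase median log2 fold change) were 0.0185, -0.144, 0.0171 with plain totals and 0.0205, -0.155, 0.0178 with voom and plain totals. V-ATPase genes called lower were 5 with a minimum mean FPKM of 1, 5 among protein-coding genes alone and 7 with voom and median-of-ratios scaling. The hydrolase median was -0.0967 with a pseudocount of 0.1 and -0.1 with voom and median-of-ratios scaling, and the V-ATPase median was -0.0434 with quantile normalization.

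With 1 library left out, members called lower ranged over 11 to 15 and 1 was called higher in each of the 6 fits. The lower counts were 6 to 8 for hydrolases, 4 to 5 for membrane proteins and 1 to 2 for V-ATPase, and the gene called higher was a hydrolase each time. The members called lower were fewest, 11, without WT replicate 2 or PGRN KO replicate 5. Other lysosomal genes were 15 to 22 lower and 1 to 2 higher. The hydrolases median log2 fold change was -0.0996 to -0.0273, the membrane proteins median log2 fold change -0.274 to -0.239 and the V-ATPase median log2 fold change -0.12 to -0.0925. Fewer libraries were tested in these fits.

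No member called with the deposited scaling changed its direction in any alternative. Members that were not called did so with plain totals (Gusb 0.0185, Neu1 0.079, Smpd1 0.0687, Atp6v0b 0.0613, Atp6v0e 0.0996, Atp6v1b2 0.0936, Atp6v1d 0.0559, Atp6ap1 0.0881, Atp6ap2 0.0733), with voom and plain totals (Gusb 0.0205, Neu1 0.0799, Smpd1 0.08, Lamp2 0.000337, Atp6v0b 0.0614, Atp6v0e 0.101, Atp6v1b2 0.0951, Atp6v1d 0.0575, Atp6ap1 0.0892, Atp6ap2 0.0741) and with quantile normalization (Neu1 0.0482, Atp6v0e 0.0768, Atp6v1b2 0.0499, Atp6ap1 0.0707, Atp6ap2 0.0111), as log2 fold changes. With a library left out, log2 fold changes that took both signs ranged over 6 fits for Smpd1 (-0.0723 to 0.0151), Arsa (-0.0557 to 0.0947), Sgsh (-0.0996 to 0.0236), Atp6v0e (-0.0639 to 0.052), Atp6v1b2 (-0.0701 to 0.0312) and Atp6ap2 (-0.0818 to 0.0118) (lowest to highest). No paired analysis was possible because the genotypes share no replicate numbers. Pseudocounts of 0.5 and 0.1 and robust eBayes changed no member's call. Median-of-ratios scaling changed none either, but its factor was 1.006 in all 6 libraries, so it could hardly have done so. Depth limits the low genes, above all Sgsh, Atp6v0d2, Ids, Manba and Arsa, which had the fewest fragments of the members. The cause of the other changes was not tested.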

Other observations

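Of the 47 genes 7 lie on chromosome 11, which also carries Grn. Atp6v0a1 and Naglu are the nearest, 1367 and 1353 kb away, and neither was called with the deposited scaling. All PGRN KO libraries were above all WT libraries for Atp6v0a1 and below them for Naglu, against 18.1% and 19.6% of all genes tested. With plain totals Atp6v0a1 was called higher (adjusted p = 0.0263) and Naglu was not called. The others, Gaa, Sgsh, Ctns, Cd68 and Gm2a, lie 16830 to 47320 kb away. Gaa, Ctns and Cd68 were called lower with the deposited scaling, beside 9.95% of all genes tested and 36.2% of all members. With plain totals Ctns and Cd68 were called lower, Gaa was not called (adjusted p = 0.0883) and Gm2a was called higher (adjusted p = 0.0241). Among all genes tested 6.31% were then lower and 14.5% higher. What part the chromosomal region around Grn has in these values was not tested.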
